A study of Homo sapiens with 24 samples.

Results

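ETS transcription factors are proteins that share the ETS DNA-binding domain, which recognises a GGA core in DNA, and 10 of their genes were followed here in a gastric cancer line treated with inhibitors of signalling kinases. The genes were picked by symbol as the PEA3 group (ETV1, ETV4 and ETV5) and other ETS factors of epithelial cells (ETS1, ETS2, ELF3, EHF, ELK1, ELK3 and ETV6). All 10 symbols were rows of the deposited table of 23368 genes, and all 10 were among the 13947 genes with enough counts to be tested. The cells were AGS, an established human gastric adenocarcinoma line whose genotype the labels give as WT, grown as 24 bulk cultures for 24 h. The 6 groups of 4 libraries were an untreated control, PI103 at 0.7 µM (an inhibitor of PI3 kinase and mTOR), PD0325901 at 0.035 µM (a MEK inhibitor), (5Z)-7-oxozeaenol at 0.5 µM (a TAK1 inhibitor, called oxozeaenol below), PI103 with oxozeaenol, and PI103 with PD0325901. The combinations held each inhibitor at 50% of those concentrations, that is PI103 at 0.35 µM with oxozeaenol at 0.25 µM or with PD0325901 at 0.0175 µM. Whether a vehicle was added to the control cultures is not stated in the labels, and every result is from this 1 cell line.

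ETS factors are a common end point of the RAS, RAF, MEK and ERK kinase cascade. ERK phosphorylates ELK1 and its relatives and ETS1 and ETS2, which changes their activity as proteins. The PEA3 genes are controlled in addition at the level of transcription, where the repressor CIC, which ERK signalling inactivates, binds short octamers in its target genes. ELF3 and EHF belong to an epithelial branch of the family, and ETV6 and, in many settings, ELK3 act as repressors. The libraries measure RNA only, so protein amount and phosphorylation were not analysed here.

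The start of ETV1 is shown because 1 of its RefSeq promoter windows carried letters of both kinds, and that of ELF3, the member with the highest level, is shown beside it as a start without them. RefSeq (GRCh38.p14) gave windows from 250 bases before to 50 after a start for 7 of the 10 members, with 6 for ETV1, 2 each for ETS2, EHF and ELK3, and 1 each for ELF3, ELK1 and ETV6. ETV4, ETV5 and ETS1 had no window in the table. Each sequence is the 250 bases before the start, 5′ to 3′ on the gene's own strand. In ETV1 (chr7:13991426-13991675, minus strand, start at 13991425) the capitals mark the ETS core CCGGAA at -136 to -131 and the CIC octamer TGAATGGA at -125 to -118, counted from the start. In ELF3 (chr1:202010337-202010586, plus strand) no searched motif was present and there are no capitals.
ETV1: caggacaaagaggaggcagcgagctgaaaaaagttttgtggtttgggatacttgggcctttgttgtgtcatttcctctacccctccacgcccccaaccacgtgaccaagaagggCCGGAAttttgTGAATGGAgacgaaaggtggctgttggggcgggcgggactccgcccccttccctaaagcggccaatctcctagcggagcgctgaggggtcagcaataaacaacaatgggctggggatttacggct
ELF3: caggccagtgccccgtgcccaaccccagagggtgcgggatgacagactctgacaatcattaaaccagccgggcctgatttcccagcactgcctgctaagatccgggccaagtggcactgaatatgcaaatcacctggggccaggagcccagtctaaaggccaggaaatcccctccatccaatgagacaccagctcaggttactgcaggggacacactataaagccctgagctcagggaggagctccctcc

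The search covered both strands for the CIC octamers TGAATGAA, TGAATGGA, TCAATGAA and TCAATGGA, the CArG box of SRF, the AP-1 letters TGANTCA and the ETS core CCGGAA. Another 2 windows of ETV1, with starts at 13990702 and 13990706, 4 bases apart, shared a CCGGAA. It begins at -141 and -137 of these starts and is a different site from the marked one. The windows of the other 6 members held none of the motifs. Of 35116 RefSeq windows of this length, 3.77% held at least 1 of the 4 octamers, 1.03% held TGAATGGA and 17.2% held CCGGAA. The AP-1 letters were in 7.71% and the CArG box in 1.29%. DUSP6, an ERK readout followed below, held TCAATGGA on the opposite strand at -24 and at 1. A match is a description of these letters and not a measured site.

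In GENCODE release 29 (GRCh38) the PEA3 genes lie at chr7:13891228-13991425 (ETV1), chr17:43527844-43579620 (ETV4) and chr3:186046308-186110318 (ETV5), all on the minus strand. ETS1 (chr11:128458761-128587558, minus strand) and EHF (chr11:34621093-34661057, plus strand) share a chromosome. ETS2 lies at chr21:38805307-38824955 and ELF3 at chr1:202007945-202017188, both on the plus strand. ELK1 is at chrX:47635521-47650604 on the minus strand, while ELK3 (chr12:96194382-96269835) and ETV6 (chr12:11649854-11895402) are on the plus strand of chromosome 12. Values are read counts per gene symbol, and exons of 4 members overlap exons of another gene. The overlap covers 9.23% of ELF3 exon bases on each strand, 4.5% of ELK3 opposite an antisense gene, 2.83% of ETV5 with DGKG and 1.89% of ETV4 opposite DHX8. Whether counting used strand is not given in the sources used here, so these 4 genes may hold or lose a few reads to their neighbours.

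Libraries held 38.1 to 84.2 M gene counts, and levels are given as CPM, the counts per 1 M counts of the scaled library. The line's epithelial markers were present in every library, with a summed level over 9 genes of 5160 to 8120 CPM, of which only CDX1 was at 0 to 1 count. Leukocyte markers summed to 0.635 to 3.55 CPM over 5 genes, nearly all CD68, and endothelial markers to at most 0.437 CPM over 3 genes. Fibroblast markers summed to 14.3 to 17.4 CPM in control, 32.3 to 34.4 with PI103, 18.2 to 22.4 with PD0325901, 8.18 to 10 with oxozeaenol, 9.22 to 11.2 with PI103 and oxozeaenol, and 21.8 to 25.7 with PI103 and PD0325901, and no treated group overlapped control. COL1A1, at 7.93 to 34.2 CPM over the libraries, made up nearly all of that sum, while DCN was at 0 to 1 count, LUM and PDGFRB reached at most 19 counts each and COL3A1 at most 88. Of the 4 fibroblast markers tested, 3 rose and 1 fell with PD0325901, where the PEA3 genes fell (COL3A1 3.9, LUM 2.47, COL1A1 0.38 and PDGFRB -1.26), and CD68 rose by 1.49. The part of these markers in the members' results was not tested. In bulk RNA fewer cells that express a gene and less RNA per cell cannot be told apart. The replicate number is also the batch number in the labels. Replicate 2 of PD0325901 and of PI103 with PD0325901 had the lowest ETV4 and ETV5 and the highest ELF3 of its group. The changes of ETV4 and ETV5 against control are therefore also given without these libraries. For other results, a call that was lost without 1 of them is named where it occurs.

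Exon length was taken as all annotated exon bases of a gene, merged over its transcripts, whichever of them the cells use. Per kb of exon, the control level was highest for ELF3 at 40.5 ± 3.22 CPM per kb (SD, n = 4) and lowest for ETV1 at 0.147 ± 0.0253. Between them the order was ETV5 (22.0 ± 0.587), ETV4 (18.8 ± 2.21), ETS2 (11.5 ± 0.524), ELK1 (8.24 ± 0.825), ETS1 (5.63 ± 0.878), ETV6 (4.1 ± 0.329), ELK3 (2.53 ± 0.496) and EHF (0.484 ± 0.0965). The control ranges of neighbours in this order did not overlap, which covers the spread between libraries and not the choice of exon length. With PD0325901 the order became ELF3, ELK1, ETS2, ETV6, ELK3, ETV5, ETS1, EHF, ETV4 and ETV1. There ETV4 stood at 0.309 ± 0.145 CPM per kb (SD, n = 4), under EHF at 0.506 ± 0.0343. The ranges of ETV6 and ELK3, of ELK3 and ETV5, and of ETV5 and ETS1 overlapped under that treatment.

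**Figure D1:**
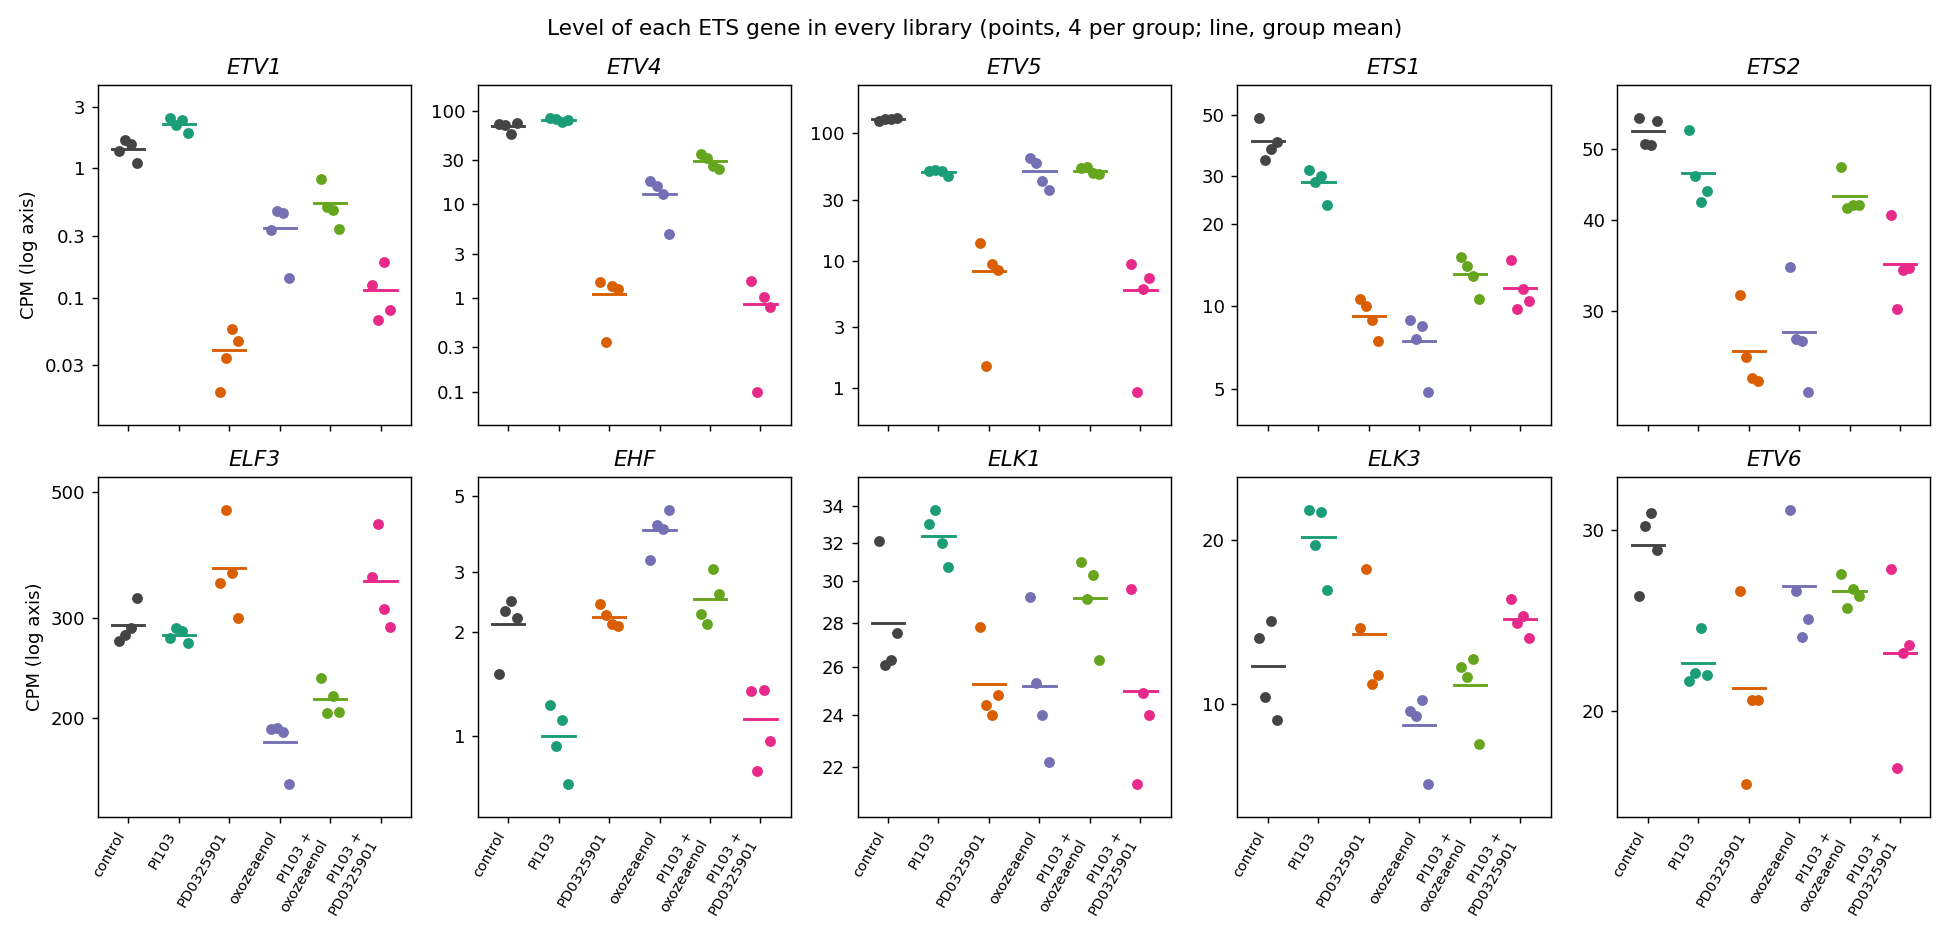
CPM of each of the 10 ETS genes on a log axis, 1 panel per gene, with 4 libraries per group as points (replicates 1 to 4 from left to right) and the group mean as a line. ETV4 spans 56.3 to 74.3 CPM in control and 0.343 to 1.5 CPM with PD0325901, whereas ELK1 stays between 21.4 and 33.8 CPM in all groups.

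The first question was how each inhibitor moved the members against control. Changes are log2 fold changes with their standard error (SE), tested with edgeR's quasi-likelihood test and adjusted by Benjamini-Hochberg over all 13947 genes. A gene is said to have risen or fallen only at an adjusted p under 0.05. All 5 treatments share the control libraries.

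PI103 moved 6 of 10 members, 2 higher and 4 lower, where 51.4% of all genes tested were called, 26.2% higher and 25.2% lower. PD0325901 moved 7, with 1 higher and 6 lower, where 58.6% of all genes were called, 28.7% higher and 29.9% lower. Oxozeaenol moved 7, with 1 higher and 6 lower, where 51.9% of all genes were called, 25.7% higher and 26.1% lower. The combination of PI103 and oxozeaenol lowered 6 and raised none, where 55.6% of all genes were called, 27.7% higher and 27.9% lower. The combination of PI103 and PD0325901 lowered 7 and raised none, where 64.8% were called, 32.2% higher and 32.6% lower. The total counts were thus near the share of all genes, while the members that were lower, 4 to 7 of 10, made up a larger share than the lower genes among all tested. The 10 genes were chosen with earlier results of these data known, so that larger share is a description only. The median member changed by -0.73 with PD0325901 and -0.8 with oxozeaenol, beside medians of -0.02 and 0.02 over all genes. Against control, ETV1, ETV4, ETV5, ETS1 and ETS2 fell with both PD0325901 and oxozeaenol. The share of all genes that fell with both was not counted, and the 2 comparisons use the same control libraries.

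**Figure D2:**
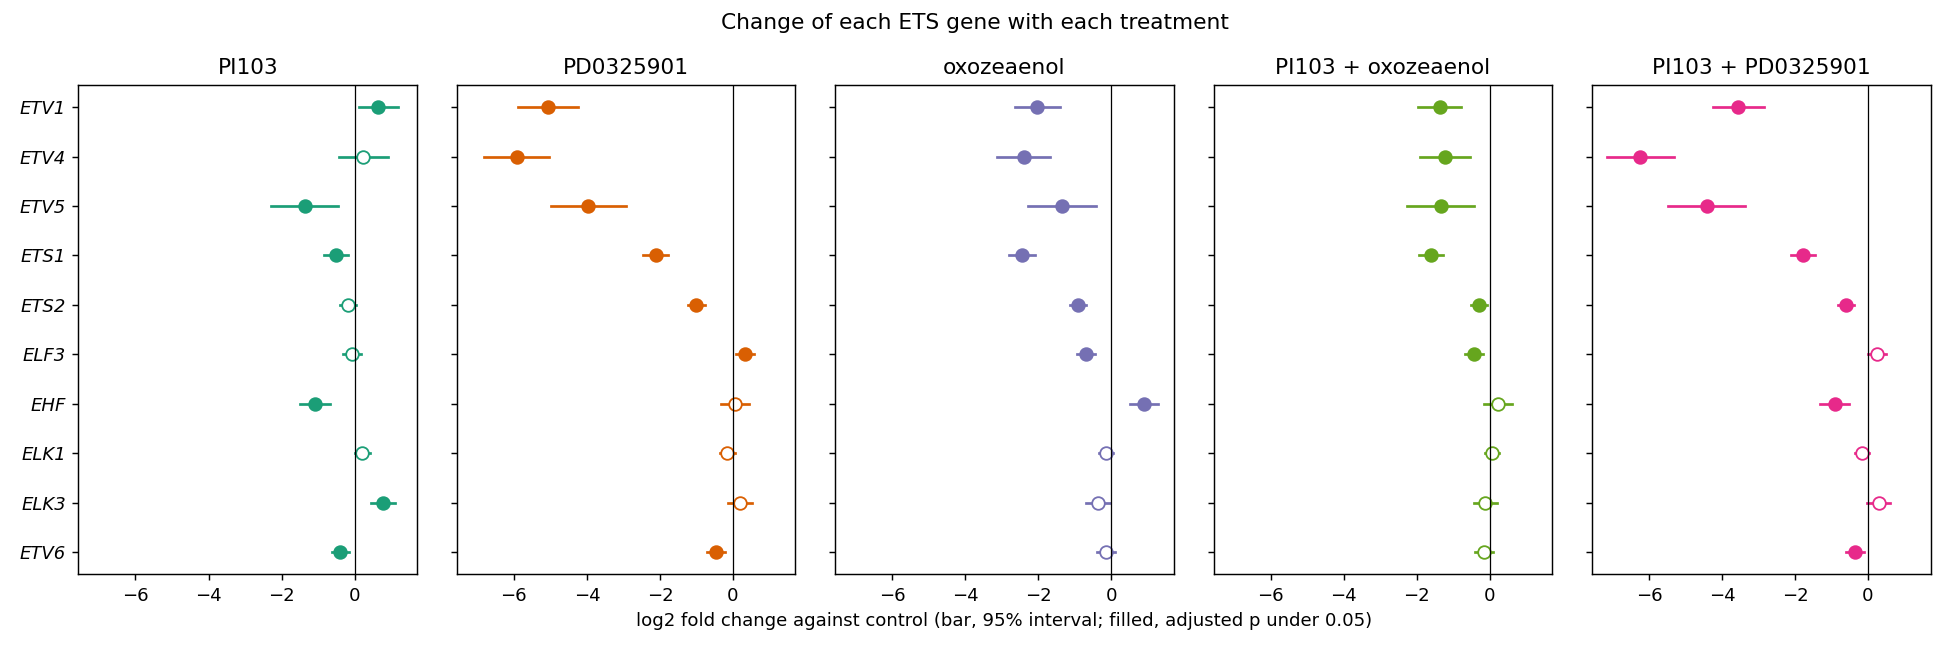
Log2 fold change of each ETS gene against control for the 5 treatments, with its 95% interval as a bar; filled points passed an adjusted p of 0.05 in edgeR's quasi-likelihood test. ETV1, ETV4 and ETV5 lie at -5.06, -5.92 and -3.96 with PD0325901, while PI103 puts ETV5 at -1.37 and ETV1 at 0.65.

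ETV4, a PEA3 activator often studied in carcinoma, was at 71.3, 70, 56.3 and 74.3 CPM in the control libraries. With PD0325901 it was at 1.5, 0.343, 1.35 and 1.27 CPM, and with PI103 and PD0325901 at 1.53, 0.101, 1.04 and 0.808 CPM. Oxozeaenol gave 17.7, 15.8, 13 and 4.82 CPM. Every library of these 3 groups lay below every control library, and the 2 groups with the MEK inhibitor lay below every oxozeaenol library. ETV4 fell by 5.92 (SE 0.429, adjusted p 1.46e-10) with PD0325901, or 60.6-fold, and by 6.23 (SE 0.438, adjusted p 5.23e-11) with PI103 and PD0325901. Without the 2 libraries of replicate 2 these values were -5.63 and -5.87. With oxozeaenol it fell by 2.4 (SE 0.345, adjusted p 5.28e-06).

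With PI103 alone the ETV4 libraries read 83.8, 81.3, 75.1 and 80 CPM. All 4 stood above all 4 controls by a small margin, and the change of 0.24 (95% interval -0.43 to 0.91, adjusted p 0.562) did not pass the test in the fit over all groups. Fitted on the PI103 and control libraries alone, the same change of 0.24 had an adjusted p of 0.0307. PI103 with oxozeaenol gave 34.8, 31, 25.7 and 23.9 CPM, between the control and the oxozeaenol libraries without overlap. That was a change of -1.23 against control (SE 0.33, adjusted p 0.00306).

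ETV5, the PEA3 gene with the highest control level, read 123, 128, 129 and 131 CPM in control, with the smallest SD relative to its mean of any member there. PI103 brought it to 50.3, 51.3, 50.2 and 46 CPM, oxozeaenol to 63.7, 58.3, 42.1 and 35.8 CPM, and the combination of both to 53.3, 53.9, 48.2 and 47.3 CPM. These 3 groups overlapped one another and lay wholly below control. ETV5 fell in all 3, at -1.37 (SE 0.44, adjusted p 0.0134) for PI103, -1.35 (SE 0.44, adjusted p 0.0145) for oxozeaenol and -1.33 (SE 0.439, adjusted p 0.0144) for both. The combination and PI103 alone differed by 0.04 (95% interval -0.87 to 0.94), and the combination and oxozeaenol alone by 0.02 (95% interval -0.89 to 0.93). These intervals are wide enough to hold a change of more than 1.5-fold either way. They rest on 1 spread for ETV5 estimated over all 6 groups, which include the 2 variable groups with PD0325901 described next. Fitted on only the 2 groups compared, the same test against control gave adjusted p of 1.94e-09 for PI103, 6.33e-06 for oxozeaenol and 2.86e-09 for both.

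The MEK inhibitor took ETV5 further down. PD0325901 gave 13.7, 1.49, 9.32 and 8.44 CPM, and its combination with PI103 gave 9.47, 0.941, 6.03 and 7.29 CPM. Replicate 2 lay far below the other libraries in both groups. The change was -3.96 for PD0325901 (SE 0.493, adjusted p 9.86e-07) and -4.42 for the combination (SE 0.506, adjusted p 2.28e-07), and without the 2 libraries of replicate 2 the changes were -3.61 (SE 0.194) and -4.07 (SE 0.199).

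ETV1, the third PEA3 gene, was scarce throughout, at 1.36, 1.66, 1.54 and 1.1 CPM in control. With PD0325901 the 4 libraries held 1, 2, 4 and 3 of its counts, 10 in all against 383 in control. The ratio of pooled counts per library size was 2.9% of control (exact binomial 95% interval 1.38% to 5.4%, which covers counting error only), and the fitted change was -5.06 (adjusted p 8.91e-11). With PI103 and PD0325901 there were 31 counts, or 8.58% of control (5.75% to 12.4%). Oxozeaenol left 0.331, 0.465, 0.454 and 0.141 CPM, a change of -2.03 (SE 0.302, adjusted p 3.95e-06), and PI103 with oxozeaenol left 0.825, 0.501, 0.48 and 0.341 CPM, a change of -1.37 (SE 0.284, adjusted p 0.00021).

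PI103 alone went the other way for ETV1, at 2.46, 2.17, 2.37 and 1.89 CPM. Every PI103 library was above every control library, and the rise was 0.65 (SE 0.264, adjusted p 0.0408). The call was kept only without control replicate 2 or PI103 replicate 4 among 8 fits that each left out 1 of these libraries, where the change ranged from 0.55 to 0.73 and the adjusted p from 0.0409 to 0.123. It was also lost without the filter on low counts, at an adjusted p of 0.0621. The PEA3 genes therefore did not move as 1 group with PI103, since ETV5 fell, ETV1 was higher and ETV4 did not pass.

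The unequal response was plain in the number of ETV4 reads per ETV5 read within each library, a quantity that needs no scaling between libraries. It was 0.437 to 0.582 in control and 1.5 to 1.74 with PI103, and the ranges did not overlap. Oxozeaenol lowered it to 0.134 to 0.308, and PI103 with oxozeaenol stood at 0.505 to 0.653, which overlapped control. It was 0.11 to 0.23 with PD0325901 and 0.107 to 0.173 with PI103 and PD0325901. Replicate 2, the library lowest in both genes, set the upper end of the PD0325901 range and the lower end of the range for its combination with PI103. No test was made of the ratio, and counts of 2 genes of different length give no ratio of molecules.

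**Figure D3:**
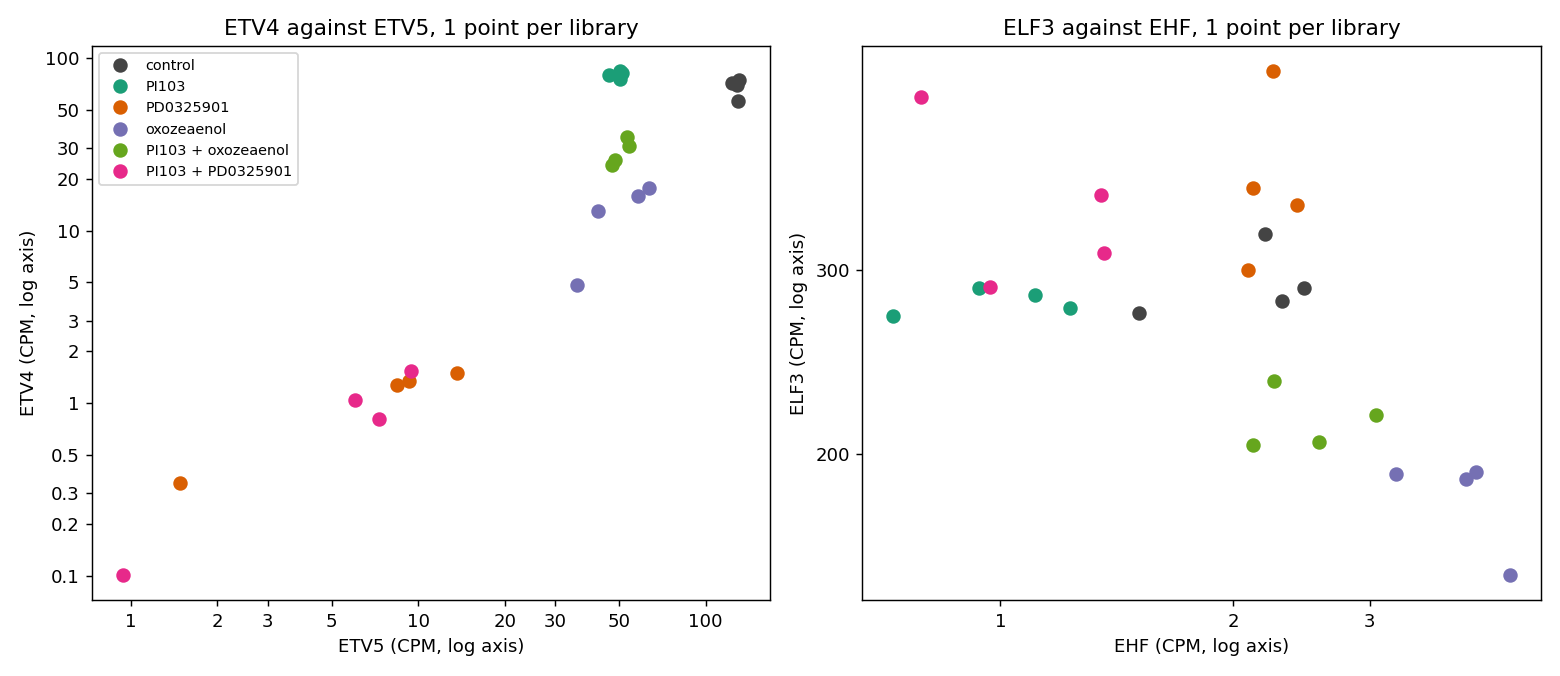
Left, CPM of ETV4 against ETV5, and right, CPM of ELF3 against EHF, both on log axes with 1 point per library and a colour per group. PI103 libraries sit at 75.1 to 83.8 CPM of ETV4, just above control at 56.3 to 74.3 CPM, but near 50 CPM of ETV5. Oxozeaenol libraries combine the highest EHF with the lowest ELF3.

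ETS1, a founding member of the family that ERK phosphorylates, read 49, 34.3, 37.8 and 39.8 CPM in control. Oxozeaenol took it to 8.89, 7.57, 8.49 and 4.87 CPM, and PD0325901 to 10.6, 10, 8.88 and 7.46 CPM. Both groups were far below control and overlapped each other. The change of ETS1 was -2.44 for oxozeaenol (SE 0.17, adjusted p 3.03e-11) and -2.12 for PD0325901 (SE 0.167, adjusted p 1.06e-10). PD0325901 minus oxozeaenol was 0.31 (95% interval -0.03 to 0.66, adjusted p 0.163), and with the replicate number as a block that difference passed at an adjusted p of 0.0258.

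ETS1 in the combinations was above every oxozeaenol library, at 15.2, 14, 12.9 and 10.6 CPM for PI103 with oxozeaenol and 14.8, 9.79, 11.6 and 10.5 CPM for PI103 with PD0325901. Against control these were changes of -1.61 (adjusted p 1.03e-08) and -1.78 (adjusted p 1.03e-09). PI103 alone gave 31.6, 28.5, 30.1 and 23.5 CPM, all below control, a change of -0.5 (SE 0.158, adjusted p 0.01). Without control replicate 1, the highest control library, it was -0.39 with an adjusted p of 0.052.

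ETS2, the close paralog of ETS1, changed less. It was at 55.2, 50.9, 50.7 and 54.7 CPM in control, at 31.6, 26, 24.3 and 24.1 CPM with PD0325901 and at 34.5, 27.5, 27.3 and 23.3 CPM with oxozeaenol. Both treated groups lay wholly below control and overlapped each other. ETS2 fell by 1 (SE 0.109, adjusted p 2.12e-08) and by 0.91 (SE 0.109, adjusted p 1.56e-07), and the treatments differed by -0.09 (95% interval -0.31 to 0.14). With PI103 it was at 53.2, 46, 42.4 and 43.9 CPM, a change of -0.19 (adjusted p 0.146) that passed only with the replicate block (adjusted p 0.0261).

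In the combinations ETS2 was at 40.7, 30.2, 34.2 and 34.4 CPM with PI103 and PD0325901, a change of -0.6 (SE 0.108, adjusted p 2.8e-05). PI103 with oxozeaenol gave 47.3, 41.5, 42 and 42 CPM, all below control. That change of -0.29 (SE 0.108, adjusted p 0.024) lost its call without control replicate 1 or 4 or without replicate 2, 3 or 4 of the combination, at an adjusted p of 0.0206 to 0.0591 over 8 such fits.

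The epithelial pair moved in its own way. ELF3 was the most abundant member at 273, 280, 288 and 325 CPM in control, and 276, 288, 284 and 271 CPM with PI103. Oxozeaenol lowered it to 191, 192, 189 and 153 CPM, and PI103 with oxozeaenol to 235, 204, 218 and 205 CPM. Neither of these groups overlapped control, with changes of -0.69 (SE 0.12, adjusted p 3.33e-05) and -0.44 (SE 0.119, adjusted p 0.00302). With PI103 the change was -0.06 (95% interval -0.31 to 0.18).

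With PD0325901 ELF3 was at 346, 465, 359 and 300 CPM, above control in 3 libraries and overlapping it in the fourth. The rise of 0.33 (SE 0.119, adjusted p 0.0188) was 0.23 with an adjusted p of 0.11 without replicate 2, which ended the call. It was also lost without control replicate 1 (0.3, adjusted p 0.0531). PI103 with PD0325901 gave 354, 439, 311 and 289 CPM, a change of 0.26 (adjusted p 0.0616) that passed with the replicate block (adjusted p 0.0493) and in 3 of 8 fits that left out 1 library. The MEK and the TAK1 inhibitor differed for this gene, since ELF3 with PD0325901 exceeded that with oxozeaenol by 1.02 (SE 0.12, adjusted p 1.11e-06) with no overlap between the libraries.

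EHF, the other epithelial ETS factor and scarce in these cells, read 1.51, 2.31, 2.47 and 2.2 CPM in control. Oxozeaenol raised it to 3.24, 4.12, 4 and 4.55 CPM, and PI103 lowered it to 1.23, 0.937, 1.11 and 0.727 CPM. Both groups lay clear of control, on opposite sides. The rise was 0.9 (SE 0.189, adjusted p 0.000272) and the change with PI103 -1.08 (SE 0.2, adjusted p 6.54e-05), and the 2 treatments differed by 1.99 (SE 0.2, adjusted p 1.77e-08), or 3.96-fold. PD0325901 gave 2.42, 2.25, 2.12 and 2.09 CPM, a change of 0.06 (95% interval -0.33 to 0.45).

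In the combinations EHF was at 1.35, 0.79, 1.36 and 0.97 CPM with PI103 and PD0325901, a change of -0.91 (SE 0.197, adjusted p 0.00024) with every library below control. With PI103 and oxozeaenol it was at 2.26, 2.12, 3.06 and 2.58 CPM, which overlapped control (change 0.23, adjusted p 0.305). EHF and ELF3 thus moved to opposite sides of control with oxozeaenol. The number of ELF3 reads per EHF read was 117 to 181 in control and 33.7 to 59 with oxozeaenol, and 224 to 373 with PI103, where the 3 ranges did not overlap. It was 143 to 207 with PD0325901, which overlapped control, and 71.1 to 104 with PI103 and oxozeaenol. With PI103 and PD0325901 it was 229 to 556, which overlapped PI103, and replicate 2 set the upper end.

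The ternary complex factors, which bind DNA together with SRF, changed little or in 1 treatment. ELK1 read 32.1, 26.1, 26.3 and 27.5 CPM in control and passed the test in none of the 5 treatments, with changes from -0.16 to 0.21. The count without adjustment was 1 of 5, for PI103 at 33, 33.8, 32 and 30.7 CPM (change 0.21, unadjusted p 0.0388, adjusted p 0.071). DESeq2 also gave no ELK1 call, while the replicate block gave calls for PI103 (adjusted p 0.0157) and for PI103 with PD0325901 (adjusted p 0.049). PI103 was also called in the fit on its own groups (0.22, adjusted p 0.0388) and without control replicate 1 (0.28, adjusted p 0.0223), and its combination with PD0325901 without replicate 1 of that combination (-0.26, adjusted p 0.0216). Between treatments ELK1 was lower with PD0325901 than with PI103, at -0.36 (SE 0.0969, adjusted p 0.00376), with no overlap.

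ELK3 was at 13.2, 10.3, 14.2 and 9.36 CPM in control and at 22.7, 19.6, 22.5 and 16.2 CPM with PI103. All PI103 libraries exceeded all controls, and ELK3 rose by 0.78 (SE 0.156, adjusted p 0.000163), which held in all 8 fits that left out 1 of these libraries. With oxozeaenol it read 9.74, 9.53, 10.2 and 7.16 CPM, a change of -0.36 that just missed the threshold (adjusted p 0.0556). It passed with DESeq2 (adjusted p 0.0469), without the filter on low counts (adjusted p 0.0401), with the replicate block (adjusted p 0.0111) and in 3 of 8 fits that left out 1 library. Among the fibroblast markers COL1A1 was higher with PI103 (1.15) and lower with oxozeaenol (-0.77), while LUM was at 0 counts with PI103 and higher with oxozeaenol (1.59) and PDGFRB was lower with oxozeaenol (-2.24). COL3A1 passed with neither (0.72 and 1.39), and the part of these genes in the ELK3 result was not tested. Levels with PD0325901 (10.9 to 17.7 CPM) and in both combinations overlapped control and did not pass. With the block, PI103 and PD0325901 together gave an adjusted p of 0.0265 for a change of 0.3, and without control replicate 3 the adjusted p was 0.037.

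ETV6, a repressor of the family, read 25.9, 30.3, 31.2 and 28.7 CPM in control. PI103 gave 21.4, 21.8, 24.1 and 21.7 CPM, wholly below control, and PD0325901 gave 26.2, 17, 20.5 and 20.5 CPM, of which replicate 1 overlapped control. The change of ETV6 was -0.39 for PI103 (SE 0.118, adjusted p 0.0082) and -0.46 for PD0325901 (SE 0.119, adjusted p 0.00152). In their combination it was at 27.5, 17.6, 22.8 and 23.2 CPM, a change of -0.35 (adjusted p 0.0117) that was -0.24 with an adjusted p of 0.0661 without replicate 2. With oxozeaenol, alone or with PI103, ETV6 overlapped control at changes of -0.14 and -0.15, which did not pass.

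The next question was whether the single agents differed from one another in these genes. PD0325901 and oxozeaenol differed in 7 of 10 members (2 higher and 5 lower with PD0325901), where 28.5% of all genes tested were called, 15.1% higher and 13.4% lower. ETV1 (-3.03, SE 0.457), ETV4 (-3.52, SE 0.41) and ETV5 (-2.61, SE 0.47) were lower with PD0325901, in that order at adjusted p of 2.93e-05, 2.56e-06 and 0.000477, and no library overlapped. EHF stood at -0.84 (adjusted p 0.00182), while ELF3 and ELK3 (0.55, adjusted p 0.0113) were higher. ETS1 and ETS2, which fell about equally with both, did not pass, and ELK1 did not either. The ELK3 call was lost without PD0325901 replicate 2 (0.41, adjusted p 0.065), and the ETV6 difference of -0.33 (adjusted p 0.0391) was lost without oxozeaenol replicate 1 or 2 or PD0325901 replicate 2, 3 or 4, at an adjusted p of up to 0.221, in the fit on these 2 groups alone (adjusted p 0.118) and without the filter on low counts (adjusted p 0.06).

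Against PI103, PD0325901 moved 9 members, 2 higher and 7 lower, where 44.5% of all genes were called, 22.9% higher and 21.7% lower. Oxozeaenol moved 8 against PI103, 1 higher and 7 lower, where 43.1% were called, 22.5% higher and 20.6% lower. ETV6 was the member that did not differ with PD0325901 (-0.08, 95% interval -0.32 to 0.16). ETV5 did not pass between oxozeaenol and PI103 (0.02, 95% interval -0.89 to 0.92), in contrast with ETV4, which was 6.23-fold lower with oxozeaenol (adjusted p 2.84e-06). ELK3 was 2.21-fold lower with oxozeaenol than with PI103 (adjusted p 2.33e-06), the 2 groups lying clear of each other.

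The combinations were then set beside their single agents, which had been given at the full concentrations. PI103 with PD0325901 differed from PD0325901 in 3 of 10 members, 2 higher and 1 lower, where 18.1% of all genes were called, 8.06% higher and 10% lower. EHF was lower, at -0.98 (SE 0.198, adjusted p 0.00136), with no overlap, and ETS2 was higher by 0.4 (SE 0.109, adjusted p 0.013), with overlap. The ETS2 call was lost without PD0325901 replicate 3 (adjusted p 0.0543) or replicate 1 of the combination (adjusted p 0.0698), and in the fit on these 2 groups alone (adjusted p 0.0562). ETV1 was higher by 1.51 (SE 0.524, adjusted p 0.0462), which rests on 31 against 10 counts, a ratio of 2.95 (exact binomial 95% interval 1.41 to 6.75). That ETV1 call was kept only without replicate 2 or 4 of the combination among 8 fits without 1 library, where the adjusted p ran from 0.0302 to 0.165, and it was lost without the filter on low counts (adjusted p 0.0621). ETV4 (-0.31, 95% interval -1.3 to 0.69) and ETV5 (-0.46, 95% interval -1.44 to 0.52) did not pass, although the combination held PD0325901 at 50% of its single concentration. ETS1 was at 0.34 (adjusted p 0.147), called with the replicate block (adjusted p 0.0271).

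PI103 with PD0325901 differed from PI103 in 8 members, 1 higher and 7 lower, where 38.7% of all genes were called, 18.8% higher and 19.9% lower. ETV4 (-6.47, SE 0.441), ETV1 (-4.2, SE 0.339) and ETV5 (-3.05, SE 0.481) were lower, at adjusted p of 3.04e-10, 5.43e-10 and 5.68e-05. EHF differed from PI103 by 0.17 (95% interval -0.26 to 0.59), which did not pass. ELK3, raised by PI103 alone, was lower in the combination than with PI103, at -0.49 (SE 0.155, adjusted p 0.0136). The ELF3 difference of 0.32 (adjusted p 0.0371) was called in 2 of 8 fits without 1 library, and it was 0.19 with an adjusted p of 0.237 without replicate 2 of the combination.

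PI103 with oxozeaenol differed from oxozeaenol in 4 members, 3 higher and 1 lower, where 14.9% of all genes were called, 7.59% higher and 7.28% lower. It differed from PI103 in 6, 1 higher and 5 lower, where 18.3% were called, 9.39% higher and 8.92% lower. Against oxozeaenol, ETS1 was higher by 0.83 (SE 0.166, adjusted p 0.00159), ETS2 by 0.62 (SE 0.109, adjusted p 0.000403) and ETV4 by 1.17 (SE 0.336, adjusted p 0.0218), all without overlap. EHF was lower, at -0.67 (SE 0.188, adjusted p 0.0166). The ETV4 call was lost with DESeq2 (adjusted p 0.0717), in the fit on these 2 groups alone (adjusted p 0.06), without the filter on low counts (adjusted p 0.0555), without oxozeaenol replicate 3 (adjusted p 0.0576) and without replicate 1 of the combination (adjusted p 0.09). The EHF call was lost without replicate 1 (adjusted p 0.0642) or 2 (adjusted p 0.0513) of the combination. ELK1 was called with the block (adjusted p 0.0375) and without oxozeaenol replicate 1 (adjusted p 0.0379). Against PI103, EHF was higher by 1.32 (SE 0.2, adjusted p 3.04e-05), and ETV1 (-2.02), ETV4 (-1.47), ETS1 (-1.11), ELK3 (-0.9) and ELF3 (-0.38, adjusted p 0.028) were lower. The ELF3 call was kept in 2 of 8 fits without 1 library, and the fit on these 2 groups alone called ETV6 (0.23, adjusted p 0.0169).

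**Figure D4:**
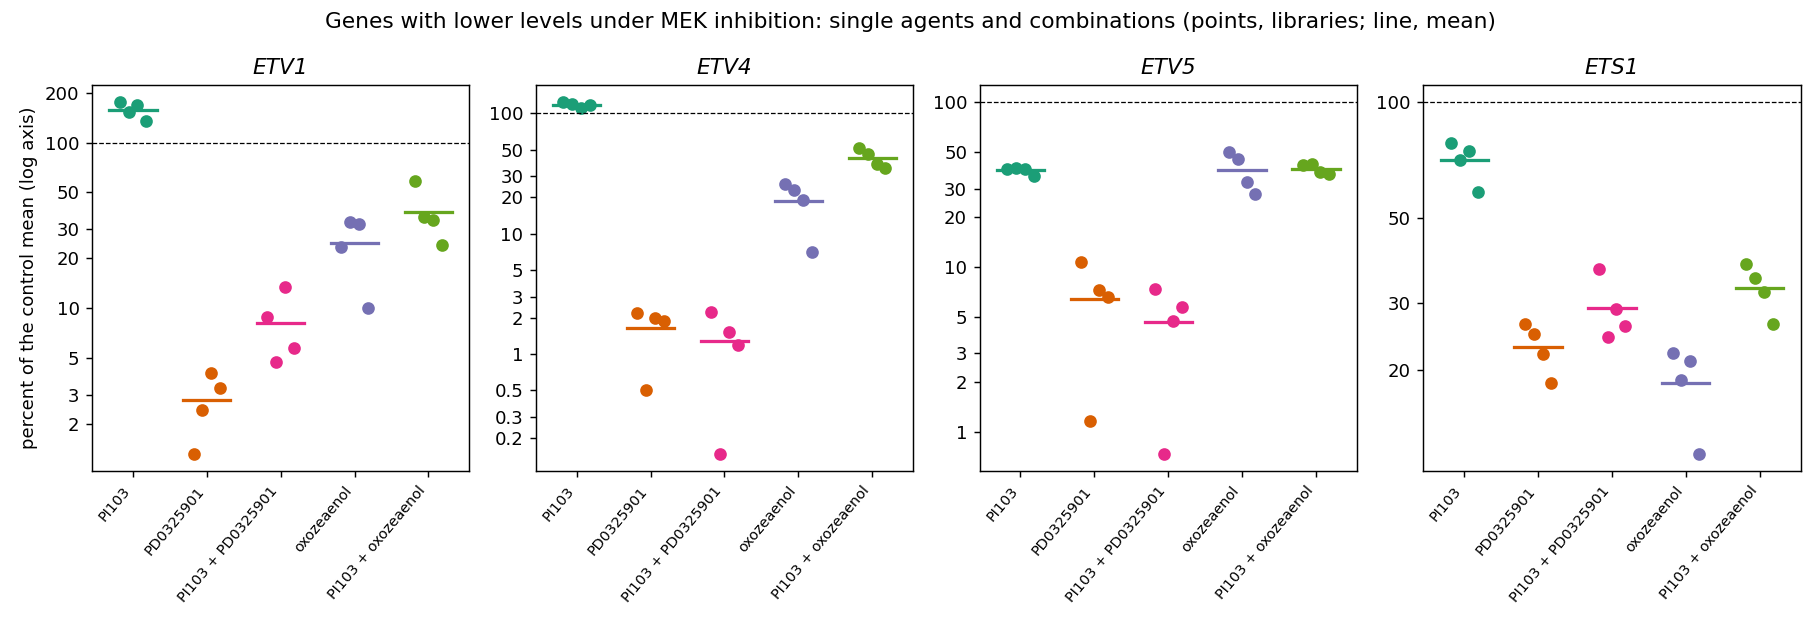
Level of ETV1, ETV4, ETV5 and ETS1 as a percentage of the control mean, on a log axis, with 4 libraries per treatment as points and the mean as a line; the dashed line is 100%. Mean ETV4 is at 1.64% with PD0325901 and 1.28% with PI103 and PD0325901, and mean ETV5 is at 38.7%, 39.1% and 39.7% with PI103, oxozeaenol and both.

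Because the combinations held 50% of each concentration, each was also set against the mean of its single-agent log2 changes. That mean is what log2 changes in proportion to concentration, adding up, would give, and the control libraries cancel in it. No culture received a single agent at 50%, so this reference was calculated and not measured. PI103 with PD0325901 was below this mean in 4 of 10 members and above it in none, where 22% of all genes were called, 10.8% higher and 11.1% lower. These were ETV4 (-3.39, SE 0.407, adjusted p 5.59e-06), ETV5 (-1.76, SE 0.428, adjusted p 0.00675), ETV1 (-1.35, SE 0.412, adjusted p 0.0207) and ETS1 (-0.47, SE 0.143, adjusted p 0.021). Without replicate 2 of the combination, ETV1 (adjusted p 0.0821) and ETS1 (adjusted p 0.107) lost their calls, as they did without its replicate 4 (adjusted p 0.0502 and 0.069). ETV1 lost it also without PD0325901 replicate 3 (adjusted p 0.0747). ETV4 and ETV5 kept theirs in all 12 fits that left out 1 library. ELK1 was called with the replicate block (adjusted p 0.0221) and without replicate 1 of the combination (adjusted p 0.0203). Set against PD0325901 at its full concentration, the combination did not pass for ETV4 (-0.31) or ETV5 (-0.46). What PD0325901 alone gives at 50% was not tested.

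PI103 with oxozeaenol passed this test in 0 of 10 members, where 3.98% of all genes were called, 2.88% higher and 1.1% lower. Without adjustment, 3 members were under 0.05, namely ETV1 (-0.68), ETS2 (0.26) and ELK3 (-0.32). DESeq2 called 0, and the replicate block called 1, ETS2 at an adjusted p of 0.0115. ETS2 was also called without oxozeaenol replicate 1 (adjusted p 0.0311), and ETV1 without oxozeaenol replicate 4 (adjusted p 0.0404). For ETV5 the interval was -0.76 to 0.81 and for ETV4 -0.74 to 0.44.

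The ERK pathway around these factors was read from gene lists. Of 13 ERK output genes, 12 were tested, and 7 fell with PI103, 11 with PD0325901 and 11 with oxozeaenol, where 25.2%, 29.9% and 26.1% of all genes were lower. The combination of PI103 with oxozeaenol lowered 9 (27.9% of all genes), and that with PD0325901 lowered 11 (32.6% of all genes). The median change of the list was -2.91 with PD0325901 and -1.44 with oxozeaenol. EGR1, an immediate early gene, went from 201 ± 50.4 CPM (SD, n = 4) to 1.64 ± 0.722 with PD0325901, 6.87 ± 4.87 with oxozeaenol and 13.4 ± 6.33 with PI103. DUSP6, a phosphatase that acts on ERK, went from 132 ± 13.4 CPM (SD, n = 4) to 3.6 ± 1.33, 22.5 ± 9.22 and 49 ± 5.89 in the same order. PI103 therefore lowered EGR1 (-3.9, adjusted p 7.59e-07), DUSP6 (-1.43, adjusted p 0.000125) and ETV5. ETV1 was higher with PI103, a call kept in only 2 of 8 fits without 1 library. ETV4 did not pass in the fit over all groups (adjusted p 0.562) but did on the PI103 and control libraries alone (adjusted p 0.0307). Only SPRY2 rose among the ERK output genes, with PI103 (0.37) and with PI103 and PD0325901 (0.34).

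Of 18 other ETS genes 12 were tested. PD0325901 raised 4 and lowered 3, a share of the 12 near the 58.6% of all genes called. PI103 raised 2 (51.4% of all genes called), oxozeaenol raised 2 and lowered 1 (51.9%), and PI103 with PD0325901 raised 5 and lowered 1 (64.8%). PI103 with oxozeaenol called 0 of 12, beside 55.6% of all genes, with 1 under an unadjusted p of 0.05, 0 by DESeq2 and 1 with the replicate block. ELK4, a relative of ELK1 and ELK3, fell by 0.61 (SE 0.116, adjusted p 6.78e-05) with PD0325901, from 45.6 ± 6.63 to 29.9 ± 3.73 CPM (SD, n = 4). ETV3, a repressor, rose by 0.3 (SE 0.103, adjusted p 0.0139) with PD0325901. SPDEF, a scarce epithelial ETS factor named after its values were seen, rose by 2.08 (SE 0.525, adjusted p 0.00171) with PI103 and by 1.67 (SE 0.54, adjusted p 0.00995) with PD0325901. It was near the floor, at 0.0768 ± 0.0664 CPM in control (SD, n = 4) with 1 to 9 counts per library. Its counts over 4 libraries were 19 in control, 75 with PI103 and 57 with PD0325901. The median change of these 12 genes with PD0325901 was 0.13, beside -0.73 for the 10 members.

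Among 12 regulators of ETS proteins, CIC rose in all 5 treatments, from 53.2 ± 4.6 CPM (SD, n = 4) in control to 85.9 ± 7.49 with PI103 and 69.2 ± 2.82 with PD0325901. Its changes ran from 0.38 with PD0325901 to 0.69 with PI103, at adjusted p of at most 0.000683. SRF, the partner of the ternary complex factors, fell in all 5, from -0.49 with PI103 to -0.92 with PI103 and PD0325901. TRIB2, a pseudokinase that binds the ubiquitin ligase COP1, rose by 1.03 (SE 0.124, adjusted p 1.03e-07) with PD0325901. Over the list, 2 rose and 5 fell with PD0325901, 5 and 3 with PI103, and 2 and 6 with oxozeaenol. For PI103 combined with oxozeaenol the counts were 2 and 4, and for PI103 combined with PD0325901 they were 3 and 5. With PD0325901 that is 7 of 12 called, near the 58.6% over all genes, and the other totals (8, 8, 6 and 8 of 12, in the order just given) stand beside 51.4%, 51.9%, 55.6% and 64.8%.

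In the RAS to ERK cascade itself all 13 genes were tested, and with PD0325901 4 rose and 4 fell, near the 58.6% called over all genes. In the order PI103, oxozeaenol, PI103 with oxozeaenol and PI103 with PD0325901, 3, 3, 3 and 2 rose and 4, 3, 5 and 5 fell, beside 51.4%, 51.9%, 55.6% and 64.8% of all genes called. MAPK3, which encodes ERK1, rose by 1.16 (SE 0.0962, adjusted p 1.64e-10), and KSR1, a scaffold of the cascade, fell by 0.93 (SE 0.151, adjusted p 8.74e-06). Of 12 reported ETS target genes 7 were tested, and 4 rose and 2 fell with PD0325901. In the same order of the other 4 treatments, 4, 3, 4 and 4 rose and 2, 2, 2 and 3 fell, to be read beside the same shares of all genes. PLAUR, the urokinase receptor, rose by 1.27 (SE 0.145, adjusted p 4.1e-08) while the PEA3 genes fell. MMP1, a collagenase chosen here after its values were seen, fell by 4.04 (adjusted p 1.23e-07) from only 0.702 ± 0.23 CPM (SD, n = 4).

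Genes with the most similar course were searched among 10039 genes with a mean of at least 5 CPM, as Pearson's r of log2 CPM over the 24 libraries. The libraries fall into 6 groups, so r mostly reflects the group means and is a description only. ETV4 was nearest to UBASH3B (r = 0.989) and EPS8 (0.984), ETV5 to the ERK output gene SPRY4 (0.98) and PIGW (0.973), and ETS1 to EZR (0.984) and SERINC3 (0.964). ETS2 was nearest to PCDH1 (0.945) and TMEM43 (0.941), ELF3 to SDC4 (0.937) and COPA (0.92), ELK1 to HNRNPUL1 (0.945) and SF3A1 (0.935), and ELK3 to STT3B (0.936) and NPTN (0.926). ETV6 had the weakest match, FAM60A at 0.834 and RNF24 at 0.823, and ETV1 and EHF were below the level needed for the search. Within the family, r was 0.94 for ETV4 and ETV5, 0.93 for ETV1 and ETV4, 0.89 for ETS1 and ETS2 and -0.72 for EHF and ELK3.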

How the data were processed

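RNA sequencing of 24 AGS libraries in 6 groups of 4 was analysed. The values deposited by the authors are raw read counts for each gene symbol, from stranded mRNA libraries of 0.8 µg total RNA per the labels' protocols. The genome build is GRCh38, per the submitters' processing notes, and the aligner, counter and annotation are not given in the sources used here. The table's 5 tallies of unassigned reads were left out. As shares of all tallied reads, no feature was 4.24% to 8.57%, ambiguous 1.57% to 2.01% and not unique 4.64% to 6.06%. Groups came from the sample titles.

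Genes were kept with edgeR's filterByExpr (13947 of 23368). TMM scaling and the model fit used edgeR 4.0.16 under R 4.3.3 (robust estimateDisp and glmQLFit, 1 coefficient per group over all 24 libraries). Each of 14 contrasts was tested by the two-sided quasi-likelihood F test, with Benjamini-Hochberg adjustment over all genes tested. The SE was taken as the size of the log2 change over the root of F. Correlations used log2 CPM with a prior count of 2. On simulated counts for PD0325901 against control over 13947 genes, 58%, 85.7%, 94% and 100% of genes changed by 0.5, 1, 2 and 4 (log2) were recovered. There 50 genes were changed per size and 13747 left unchanged, and 4.57% of the calls were unchanged genes. The simulation had no replicate effect and far fewer changed genes than the 58.6% called in the data, so these shares may not carry over. The 10 genes, the lists and the rule for named genes (all members, DUSP6, EGR1, CIC, and per list the largest rise and fall with PD0325901 at a mean of at least 5 CPM) were chosen with earlier results of these data known. Alternatives were DESeq2 1.42.0, RLE scaling, no filter, a fit on each contrast's own groups, the replicate number as a block, and leaving out each library. Exon lengths, overlaps and coordinates are from GENCODE release 29.

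In the labels a replicate's number is also its batch, so the numbers pair the libraries. Deviations from group means had a mean correlation of 0.12 over 60 same-numbered pairs (28 over 0.1) and of -0.039 over 180 others. The design text calls the 4 libraries of a group biological replicates without saying what separates them. The p-values of the main fit rest on a spread between replicates that was estimated for each gene over all 6 groups. They do not measure the spread within the compared groups alone, for which the fit on each contrast's own groups was made.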

Additional observations from a re-analysis of the deposited data

Results flagged for a closer look

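In 3 of 60 sets of 4 libraries (10 genes in 6 groups) 1 library stood apart from the other 3 by Dixon's criterion, and chance alone gives about 1 in 20. ETS2 read 47.3 CPM in replicate 1 of PI103 with oxozeaenol, above 41.5 to 42 CPM in the others. ELF3 read 153 CPM in oxozeaenol replicate 4, below 189 to 192 CPM in the others. ETV6 read 24.1 CPM in PI103 replicate 3, above 21.4 to 21.8 CPM in the others. Without PI103 replicate 3 ETV6 still fell against control, as it did in all 8 fits that left out 1 library (adjusted p by edgeR's quasi-likelihood test of at most 0.0245).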

How the results depend on the processing

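Over all contrasts and alternatives, 1847 member values kept their side of the threshold, 29 gained and 62 lost a call. No called value changed sign, and 32 values that passed under neither setting did. RLE scaling changed none of 140 calls, and DESeq2 gained 1 and lost 1. The replicate block gained 11 calls and lost none, and each is printed beside its result. Leaving out 1 library, or replicate 2 of both PD0325901 arms, gained 13 and lost 54. The number of members called moved by over 1.5 times in the following fits, and the cause was not tested. PI103 with oxozeaenol against oxozeaenol gave 2 to 5 of 10 over fits without 1 library, against 4. PI103 with PD0325901 against PD0325901 gave 1 to 3 without 1 library, against 3. It gave 1 in the fit on its own 2 groups, where the filter on low counts removed ETV1 before testing. Against the mean of its agents, PI103 with oxozeaenol gave 1 with the replicate block and 0 to 1 without 1 library, against 0. PI103 with PD0325901 gave 2 to 5 without 1 library, and 2 without replicate 2 of both PD0325901 arms, an alternative added after seeing the data, against 4. Over all genes, the count for PD0325901 against oxozeaenol was 2348 in the fit on its own groups and 2385 without PD0325901 replicate 2, against 3976. For PI103 with PD0325901 it was 1222 (own groups), 1385 (without PD0325901 replicate 3) and 1531 (without its own replicate 1) against 2521 for PD0325901 as reference, and 1466 without its replicate 2 against 3065 for the mean. For PI103 with oxozeaenol it was 4088 (own groups) against 2553 for PI103, 1050, 1347 and 1312 without its replicate 1, its replicate 3 or oxozeaenol replicate 3 against 2074 for oxozeaenol, and 232, 258 and 280 without its replicate 1, 3 or 4, 887 (own groups) and 997 (block) against 555 for the mean. ETV1 with PD0325901 is limited by depth, at 1 to 4 counts a library.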
